A study of Rattus norvegicus with 6 samples.

Results

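The ion channels described here are the families through which volatile anaesthetics are known or proposed to act: GABA-A receptor subunits, glycine receptor subunits, NMDA receptor genes, HCN pacemaker channels and tandem-pore potassium channels. The families were chosen with earlier results of these data known. Within them genes were taken by symbol, without regard to their signal. Of the 15284 named genes on the array 49 belonged to them, carried by 79 of 61657 probes. Another 3 symbols of these families (Kcnk7 and the pseudogenes Kcnk6-ps1 and Kcnk16-ps1) had no matching accession. Liver RNA came from outbred Sprague-Dawley rats, males aged 9 weeks, killed after anaesthesia with isoflurane (n = 3) or with a CO2/O2 gas mixture (n = 3), with 1 rat on each 1-colour array. All 6 rats had been dosed with corn oil at 5 mL/kg/day, for 3 days by the design text and for 9 weeks by the treatment protocol, which conflict. No rat was killed without anaesthesia, and the sources used here do not give the length of anaesthesia.

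GABA-A and glycine receptors are chloride channels opened by inhibitory transmitters, and isoflurane prolongs their opening. NMDA receptors are glutamate-gated cation channels that volatile agents inhibit, and HCN channels carry a depolarising current that they also reduce. Tandem-pore channels are the leak potassium channels that hold a cell near its resting potential, and several of them are opened by volatile anaesthetics. In liver, potassium leak channels help set the membrane potential of hepatocytes and of the other cells of the organ. Isoflurane itself is broken down to a small extent by the hepatic cytochrome Cyp2e1.

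Liver carried transcript signal for 18 of the 49 genes (36.7%), and 16 of 19 GABA-A receptor subunits were at background on every array. A gene was called detected where a probe stood well above background, by the scanner software's own flag, on all 3 arrays of at least 1 group. By the same rule 69.4% of all named genes were detected. Tandem-pore potassium channels had 8 of 13 genes detected, NMDA receptor genes 4 of 8, HCN channels 2 of 4, glycine receptor subunits 2 of 5 and GABA-A receptor subunits 2 of 19. A further 5 genes were above background on 1 or 2 arrays, making 23 with signal on at least 1 array, and 26 were above it on none. Over all named genes 78.2% had signal on at least 1 array. On all 6 arrays 15 of the channel genes were detected, where 65.7% of all named genes were. The number of channel genes with a probe above background was 19, 18 and 16 on isoflurane arrays 1 to 3 and 18, 19 and 21 on CO2/O2 arrays 1 to 3. Over all named genes these shares were 72.8%, 67.5% and 69.5% on isoflurane arrays and 70.2%, 72.6% and 74.3% on CO2/O2 arrays.

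**Figure D1:**
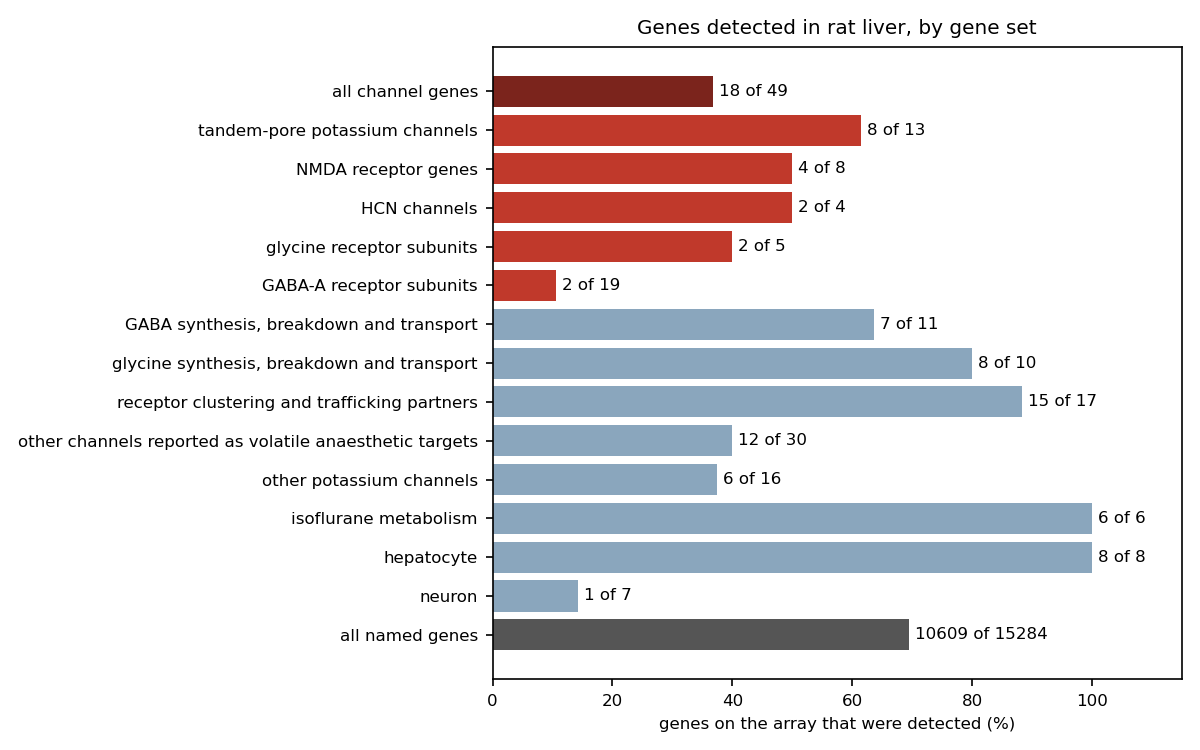
Share of genes on the array that were detected in liver, in percent, for the channel genes and their 5 families (red), other gene lists (blue) and all named genes (grey), with counts beside each bar. GABA-A receptor subunits stand at 2 of 19, tandem-pore potassium channels at 8 of 13 and all named genes at 10609 of 15284.

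Probes of the same channel gene often disagreed on whether the gene was present. Of 24 channel genes with several probes, 4 had all of them detected, 10 had some but not all, and 10 had none. The share with disagreeing probes was 41.7%, against 19.3% of all named genes with several probes. Genes with every probe detected numbered 8: Gabrd, Gabrq, Grin2c, Grin2d, Grina, Kcnk5, Kcnk6 and Kcnk13. In the other 10 detected genes at least 1 probe was not detected, as given with each gene. Probe sequences were not used here, so what each probe binds was not checked.

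Levels are given as log2 intensity relative to the 75th percentile of each array, where 0 is that percentile, and levels of different probes are not set against each other. Differences are in log2 units, with the CO2/O2 mean subtracted from the isoflurane mean. They come from limma fitted over 34637 probes, with adjusted p by Benjamini-Hochberg over all of these. A gene is represented by its detected probe with the highest mean. The lowest level that stood well above background differed between arrays. It was -4.18 and -4.42 on isoflurane arrays 2 and 3, and -4.67, -5.07 and -5.37 on CO2/O2 arrays 1 to 3. That of isoflurane array 1 lay within the CO2/O2 range. Counts of arrays above background at dim probes are therefore not by themselves differences between the groups.

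No detected channel gene passed the test for a difference between the kinds of anaesthesia. Of 18 genes, 0 reached an adjusted p of 0.05 in limma, where 0% of 10609 genes tested did, and the smallest adjusted p among the channels was 0.588. The difference was positive for 10 genes and negative for 8, where 52.9% of all genes had a negative one. Of the 8, Glra1, Kcnk1 and Kcnk2 entered the test only through the CO2/O2 group, where more of their arrays were above background, which favours a negative difference. Among the 15 genes above background on all 6 arrays 10 were positive and 5 negative. The split was 14 positive and 4 negative when blocked on slide row, and 7 positive and 11 negative without CO2/O2 rat 3. The median was 0.07, against -0.01 over all genes tested. At an unadjusted p under 0.05 there were 2 of the 18, Kcnk13 and Kcnk6, against 7.58% of all genes. Without CO2/O2 rats 1, 2 and 3 in turn, this count was 1 of 19, 1 of 18 and 3 of 18. Without isoflurane rats 1, 2 and 3 in turn, it was 4 of 19, 2 of 18 and 4 of 18. The 4 of 19 included Kcnk4, which is not 1 of the 18 genes. The count was 3 with normexp background correction or blocked on replicate number, and 0 with the mean of a gene's probes. The share over all genes was taken for the main fit only, so the counts from the other fits have no background to be read against. Kcnk13 and Kcnk6 were both lower after isoflurane, as were 4.85% of all genes at that p. The values of the groups did not overlap for 3 of the 18 (Gabrq, Kcnk6, Kcnk13), against 14.2% of all genes. Lower without overlap were 2 of the 18, against 8.16% of all genes tested. With 18 genes, none of these counts from the main fit stands far from its background. The 95% confidence interval lay within 2-fold in either direction for 13 of the 18, against 90.5% of all genes. The median half-width of that interval was 0.46 for the channels and 0.29 for all genes. The 3 CO2/O2 arrays and isoflurane array 1 lay on row 1 of the slide layout and isoflurane arrays 2 and 3 on row 2. Values blocked on slide row therefore rest on isoflurane rat 1 against the CO2/O2 rats, and are given where they turn a sign or move a difference by over 1.5 times. They did so also for Grin1 (0.57), Grin2d (0.05), Hcn4 (0.03), Kcnk5 (0.04) and Kcnk12 (0.47). Changes smaller than the interval widths above were not measurable for many of the channels with 3 rats per group.

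**Figure D2:**
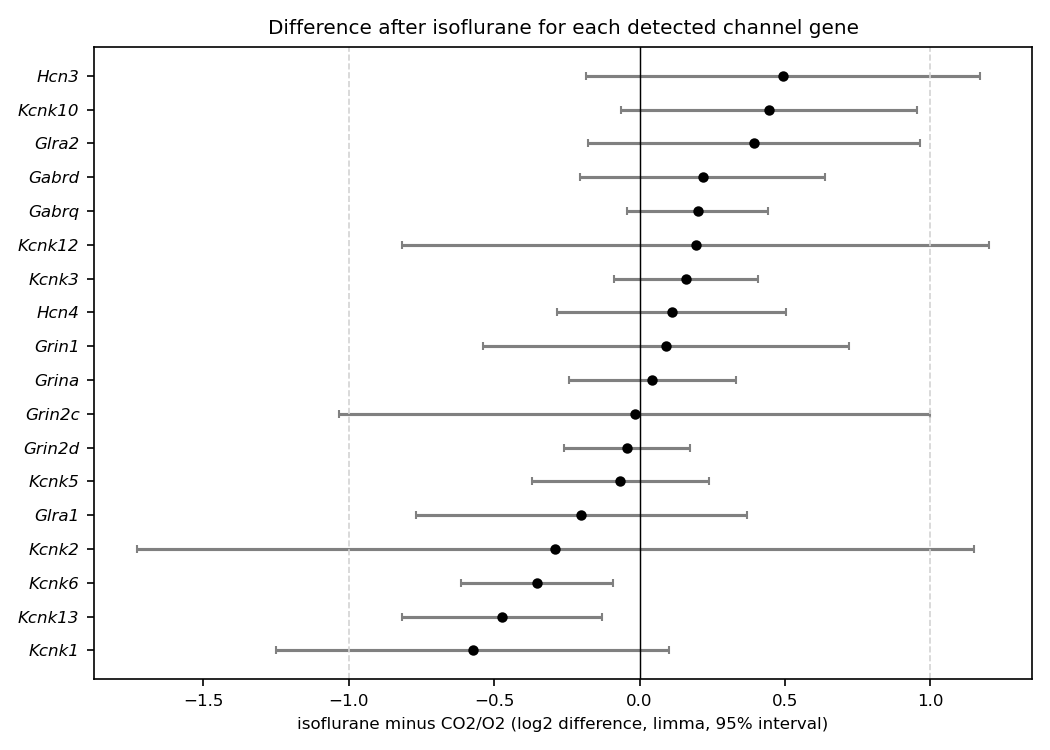
Log2 difference (isoflurane minus CO2/O2) of each detected channel gene from limma, with its 95% confidence interval, and dashed lines at 2-fold. The intervals of Kcnk13 and Kcnk6 lie below 0 before adjustment over all probes, and the remaining 16 include 0.

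Among GABA-A receptor subunits, theta and delta were the subunits detected. Gabrq, the theta subunit, had levels of -0.20, -0.31 and -0.33 in isoflurane rats, against -0.36, -0.62 and -0.47 in CO2/O2 rats. Every isoflurane value was above every CO2/O2 value, the nearest being -0.33 after isoflurane and -0.36 after CO2/O2, and the difference of 0.20 ± 0.10 (SE, n = 3 per group) had a limma adjusted p = 0.700 and shrank to 0.06 with normexp. At its other probe, also detected on all 6 arrays, the groups overlapped and the difference was 0.07 ± 0.09. Gabrd, the delta subunit of extrasynaptic receptors, had levels of -2.69, -3.11 and -3.34 in isoflurane rats and -3.21, -3.21 and -3.37 in CO2/O2 rats. These overlapped, with isoflurane rat 1 the highest, and the difference was 0.22 ± 0.17 (limma adjusted p = 0.805), or 0.57 when blocked on slide row.

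Most other subunits were at background. Gabra2, Gabra4, Gabrg1, Gabrg3, Gabre, Gabrp, Gabrr1 and Gabrr3 were among those not well above background on any array. The rho subunit Gabrr2 was above background on CO2/O2 array 3 only, at 1 of its probes. Of 7 neuronal marker genes on the array only Syn1 was detected, above background on 2 of 3 isoflurane and 3 of 3 CO2/O2 arrays. The markers Snap25, Syt1, Tubb3, Stmn2, Gap43 and Uchl1 were not. All 8 of 8 hepatocyte markers were detected.

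Glycine receptors were seen through the alpha subunits Glra1 and Glra2, each at 1 probe. Glra2 was bright at that probe, with levels of 4.99, 5.41 and 4.45 in isoflurane rats and 4.52, 4.57 and 4.58 in CO2/O2 rats. The CO2/O2 rats lay close together (SD 0.03), while the isoflurane rats spread on both sides of them (SD 0.48), and the difference was 0.39 ± 0.24 (limma adjusted p = 0.739). The second Glra2 probe was not above background on any array. Glra1, the adult spinal subunit, had levels of -3.63, -4.51 and -4.26 in isoflurane rats and -3.93, -4.11 and -3.76 in CO2/O2 rats. It was well above background on 1 of 3 isoflurane arrays and 3 of 3 CO2/O2 arrays, and the difference was -0.20 ± 0.24. Blocking on slide row turned it to 0.30. The other 2 Glra1 probes were at background on every array. Glra3 was above background on CO2/O2 array 3 only, and Glra4 and the anchoring beta subunit Glrb on none.

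NMDA receptor genes included the obligatory subunit Grin1 and the regulatory subunits Grin2c and Grin2d. Grin1 had levels of -1.87, -2.80 and -2.38 in isoflurane rats and -2.37, -2.21 and -2.75 in CO2/O2 rats. The groups overlapped throughout, with a difference of 0.09 ± 0.26 (limma adjusted p = 0.958), and the other 2 Grin1 probes were at background on all arrays. Grin2c had levels of -1.79, -2.22 and -1.34 in isoflurane rats and -0.90, -1.99 and -2.41 in CO2/O2 rats. This was a spread of 1.51 across 6 rats, and the difference was -0.02 ± 0.42 (limma adjusted p = 0.996).

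Grin2d was steady between rats. Its brightest probe had levels of 6.01, 5.95 and 5.81 in isoflurane rats and 6.02, 5.95 and 5.93 in CO2/O2 rats, with a difference of -0.04 ± 0.09 (limma adjusted p = 0.934). Its second probe had levels of 0.51, 0.87 and 0.65 in isoflurane rats and 0.97, 0.97 and 0.61 in CO2/O2 rats, with a difference of -0.18 ± 0.15. The Grin2d gene overlaps Grwd1 on the same strand in the RefSeq table of the assembly GRCr8. Grwd1 was detected on all 6 arrays at its own probe, with means of -0.75 ± 0.09 in isoflurane rats and -0.65 ± 0.04 in CO2/O2 rats (SD). Among the 18 detected channel genes, 11 overlap another gene in this assembly. For 5 of them it is a protein-coding gene (Grin1, Grin2d, Hcn3, Kcnk2 and Kcnk6), and Kcnk13 overlaps a non-coding gene on the other strand. Signal from overlapping genes was not told apart here. Grina, an NMDA receptor-associated membrane protein of the Golgi and endoplasmic reticulum that is not a channel subunit, had levels of 3.36, 3.61 and 3.71 in isoflurane rats and 3.42, 3.62 and 3.50 in CO2/O2 rats. Its difference of 0.04 ± 0.12 turned negative with median centring (-0.01), normexp background correction (-0.0039) and blocking on slide row (-0.15). Grin2a, Grin2b and Grin3b were not above background on any array, and Grin3a was so on isoflurane array 1 only.

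HCN channels were represented by Hcn3 and Hcn4. Hcn3 had levels of -3.23, -3.52 and -4.25 in isoflurane rats and -4.43, -3.91 and -4.14 in CO2/O2 rats. Isoflurane rats 1 and 2 were above all CO2/O2 rats and isoflurane rat 3 was among them, giving a difference of 0.49 ± 0.28 (95% interval -0.19 to 1.17; limma adjusted p = 0.731). Blocked on slide row it was 0.93, and without isoflurane rat 1 it was 0.27. A second Hcn3 probe was above background on 0 of 3 isoflurane and 2 of 3 CO2/O2 arrays. Its levels overlapped, at -4.95, -5.16 and -4.48 in isoflurane rats and -4.66, -4.57 and -4.75 in CO2/O2 rats. The Hcn3 gene overlaps Pklr, the liver pyruvate kinase, in the same assembly. Pklr had means of 2.33 ± 0.10 in isoflurane rats and 2.39 ± 0.19 in CO2/O2 rats (SD). Hcn4, the main pacemaker channel of the sinus node, had levels of -3.16, -2.98 and -3.11 in isoflurane rats and -2.93, -3.12 and -3.52 in CO2/O2 rats, with a difference of 0.11 ± 0.16 (limma adjusted p = 0.902). Its other 2 probes, and those of Hcn2, were at background on every array.

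**Figure D3:**
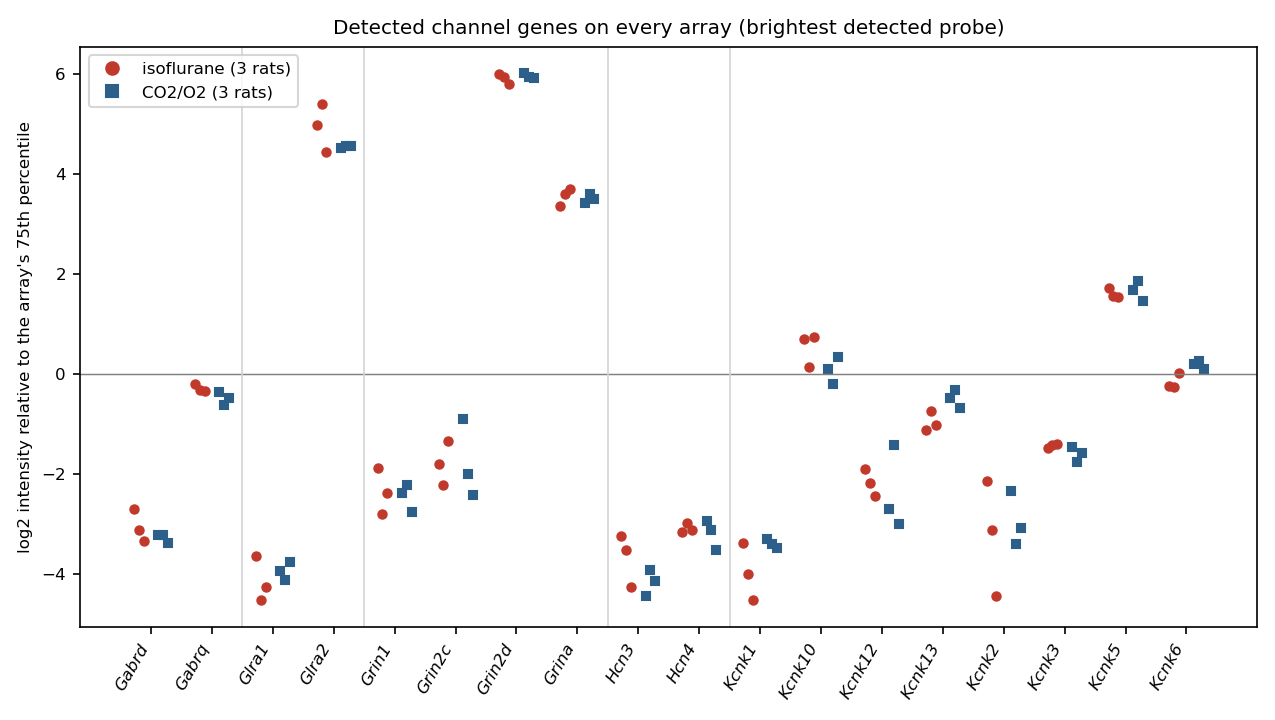
Level of each detected channel gene on every array at its brightest detected probe, as log2 intensity relative to the 75th percentile of the array, with isoflurane rats as red circles and CO2/O2 rats as blue squares. The groups overlap for all genes except Gabrq, Kcnk6 and Kcnk13, and vertical lines part the 5 families.

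Tandem-pore potassium channels had 8 of 13 genes detected in liver, and 6 of 13 on all 6 arrays. Kcnk5, the alkali-activated TASK-2 channel of epithelia, was detected at its only probe on all 6 arrays. Its levels were 1.72, 1.57 and 1.54 in isoflurane rats and 1.68, 1.88 and 1.47 in CO2/O2 rats, and the difference was -0.07 ± 0.13 (95% interval -0.37 to 0.24; limma adjusted p = 0.931). Kcnk3, the acid-sensitive TASK-1 channel that volatile anaesthetics open, had levels of -1.48, -1.42 and -1.39 in isoflurane rats and -1.45, -1.75 and -1.57 in CO2/O2 rats at 1 of its probes. The difference was 0.16 ± 0.10 (limma adjusted p = 0.754). Its other probe was at background, as were all probes of the related Kcnk9 (TASK-3) and Kcnk15.

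The TREK group, opened by stretch, lipids and, for TREK-1 and TREK-2, volatile anaesthetics, was detected through Kcnk2 and Kcnk10. Kcnk10 (TREK-2) had levels of 0.70, 0.15 and 0.74 in isoflurane rats and 0.11, -0.20 and 0.34 in CO2/O2 rats. Isoflurane rats 1 and 3 were above all CO2/O2 rats, and the difference was 0.44 ± 0.21 (95% interval -0.06 to 0.95; limma adjusted p = 0.690). Kcnk2 (TREK-1) had levels of -2.14, -3.11 and -4.44 in isoflurane rats and -2.34, -3.39 and -3.08 in CO2/O2 rats, a spread of 2.31. It was above background on 2 of 3 isoflurane and 3 of 3 CO2/O2 arrays, and its difference was -0.29 ± 0.59, and 0.80 when blocked on slide row. Each of these genes had at least 1 probe at background on all arrays.

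Kcnk4, the TRAAK channel of the same group, was on in some rats and off in others. Its levels at the brighter probe were -6.56, -0.70 and -1.93 in isoflurane rats, against -6.68, -7.05 and -7.11 in CO2/O2 rats. Isoflurane rats 2 and 3 were well above background, and isoflurane rat 1 was as dim as the CO2/O2 rats, of which 0 of 3 were above background. Isoflurane rats 2 and 3 were also the arrays on slide row 2, while isoflurane rat 1 lay on row 1 with all 3 CO2/O2 rats, so Kcnk4 was at background on every array of row 1. The slide row and the anaesthetic cannot be told apart for the signal of these 2 rats. The gene was not among those tested, since the rule needs all 3 arrays of a group. The CO2/O2 mean was set at the lowest signal that stood well above background on each array. The mean of the 3 isoflurane rats was 3.92-fold higher than that level. This is not a bound, since isoflurane rat 1 entered at its measured -6.56, below background. Measured means were -3.06 in isoflurane rats and -6.95 in CO2/O2 rats. Without isoflurane rat 1 the difference was at least 13.2-fold, and each group then has a slide row of its own. That rat was left out because its signal was dim. The value therefore describes isoflurane rats 2 and 3 only and does not measure a difference between the groups. The range of this probe over the 6 arrays was 6.41. Of 41046 probes above background on at least 1 array, 0.884% had a range as large. The main fit gives no test for Kcnk4, and its CO2/O2 level is known only as a bound. The fit without isoflurane rat 1 did count it, against CO2/O2 values all at background. The second Kcnk4 probe was at background on all 6 arrays. Of the other genes seen on some arrays only, Kcnk16 was above background on 0 of 3 isoflurane and 2 of 3 CO2/O2 arrays. Its levels at that probe overlapped between the groups. Isoflurane rat 3, at -4.98 and not above background, was higher than CO2/O2 rat 2, which was. Kcnk18 was above background on none.

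Kcnk13 and Kcnk6, the channel genes with an unadjusted p under 0.05, were both lower after isoflurane at their brighter probe. Kcnk13 encodes THIK-1, named for its inhibition by the anaesthetic halothane and known as a potassium channel of microglia, and had levels of -1.12, -0.74 and -1.02 in isoflurane rats, against -0.48, -0.31 and -0.67 in CO2/O2 rats. The groups did not overlap, and the difference was -0.47 ± 0.14 (95% interval -0.82 to -0.13; limma unadjusted p = 0.0147, adjusted p = 0.588). The second Kcnk13 probe, also detected on all 6 arrays, gave 0.09 ± 0.10 with overlapping groups, so the probes disagreed in sign, and the mean of both gave -0.19. Blocked on slide row, the brighter probes gave -0.63 for Kcnk13 and -0.43 for Kcnk6. Kcnk6 encodes TWIK-2, known as a potassium channel of macrophages and blood vessels, and had levels of -0.24, -0.26 and 0.02 in isoflurane rats, against 0.21, 0.26 and 0.11 in CO2/O2 rats. The difference was -0.35 ± 0.11 (95% interval -0.61 to -0.09; limma unadjusted p = 0.0162, adjusted p = 0.594). Its second probe was above background on 1 of 3 isoflurane and 3 of 3 CO2/O2 arrays. It entered the test only through the CO2/O2 group, so its difference is not set beside that of the first probe.

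Markers of Kupffer cells, the macrophages of the liver, were lower on the same arrays as these channels. Each of the 8 markers had a lower mean in isoflurane rats, at a median difference of -0.38, and 0 of 8 passed the test over all probes. Their mean on each array, relative to the mean of all 6 arrays, was -0.13, -0.23 and -0.25 in isoflurane rats and 0.39, 0.24 and -0.03 in CO2/O2 rats, without overlap. Lymphocyte markers (6 of 6 detected lower, median -0.33) and erythroid markers (3 of 3 lower, median -0.45) were also lower after isoflurane, and hepatocyte markers had a median of 0.04. Cholangiocyte markers were lower for 4 of 6 (median -0.18), with array means of -0.11, -0.13 and -0.19 in isoflurane rats and 0.25, 0.18 and 0.00 in CO2/O2 rats, and endothelial markers for 4 of 5 (median -0.09). Among the lower ones, Krt7 (cholangiocyte) and Tek (endothelial) were above background on 1 of 3 isoflurane and 3 of 3 CO2/O2 arrays. They entered the test only through the CO2/O2 group, which favours a negative difference. Stellate cell markers were lower for 2 of 8 (median 0.02), smooth muscle markers for 2 of 4 (median -0.01), and Schwann cell and glia markers for 2 of 5 (median 0.08). None of these lists had a gene past the test over all probes, and the lists were chosen with earlier results of these data known. The part of these cell types in the differences of Kcnk13 and Kcnk6 was not tested. In whole liver, fewer cells of a type and less RNA per cell cannot be told apart.

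**Figure D4:**
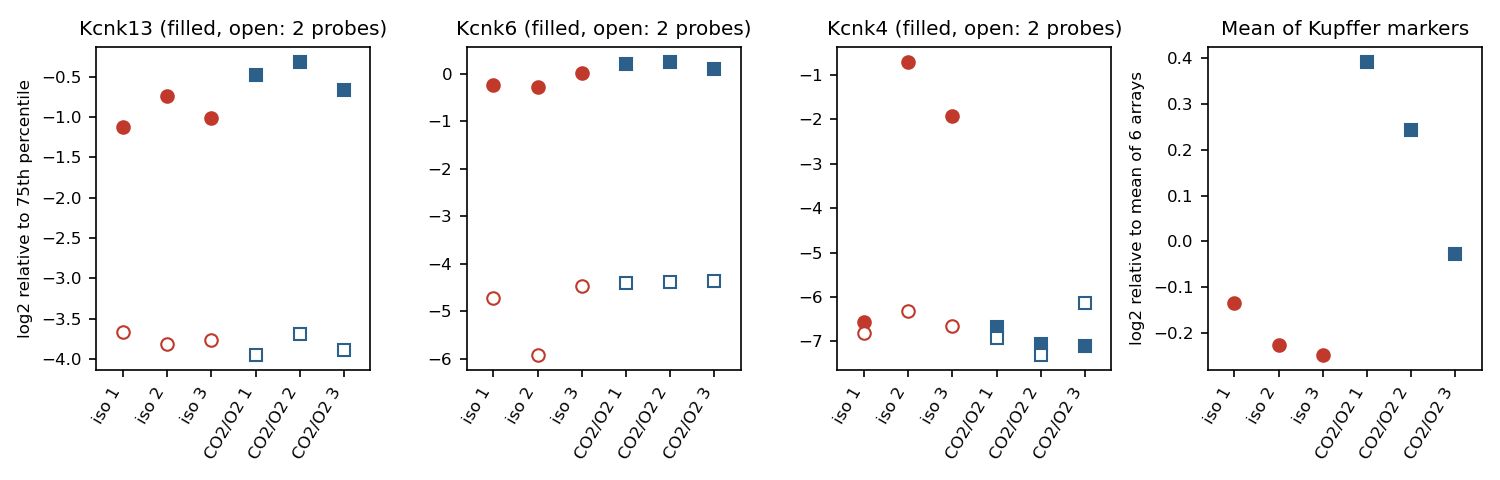
Levels of the probes of Kcnk13, Kcnk6 and Kcnk4 on every array (log2 relative to the 75th percentile; the brighter probe filled, the dimmer open) and the mean of 8 Kupffer cell markers (log2 relative to the mean of 6 arrays), isoflurane rats as red circles and CO2/O2 rats as blue squares. The filled points of Kcnk13 and Kcnk6 and the marker mean are lower in all 3 isoflurane rats, and Kcnk4 is high in isoflurane rats 2 and 3 only.

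The remaining tandem-pore genes were dim. Kcnk1 (TWIK-1) had levels of -3.37, -3.99 and -4.52 in isoflurane rats and -3.30, -3.39 and -3.48 in CO2/O2 rats, above background on 2 of 3 isoflurane and 3 of 3 CO2/O2 arrays. Its difference was -0.57 ± 0.28, against 0.02 when blocked on slide row and -0.18 with normexp. Its other probe was at background on every array. Kcnk12 (THIK-2), a relative of Kcnk13 with little activity at the cell surface, had levels of -1.89, -2.18 and -2.44 in isoflurane rats and -2.69, -1.41 and -3.00 in CO2/O2 rats. CO2/O2 rat 2 was the highest of the 6, and the difference was 0.19 ± 0.42 (limma adjusted p = 0.939). Its other probe was above background on 1 of 3 isoflurane and 2 of 3 CO2/O2 arrays.

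The sequences upstream of 3 of these genes are shown because the results above turn on them: Kcnk5 as a channel detected on all 6 arrays at its only probe, Kcnk13 as the gene of smallest p, and Kcnk4 as the gene on in some rats only. Each run is the 250 bases before the gene's start, from RefSeq on GRCr8, read in the direction of the gene, with CG dinucleotides in capitals. Kcnk5 lies at chr15:4171375-4171624 (+), Kcnk13 at chr6:124971559-124971808 (+) and Kcnk4 at chr1:213555862-213556111 (-).
Kcnk5: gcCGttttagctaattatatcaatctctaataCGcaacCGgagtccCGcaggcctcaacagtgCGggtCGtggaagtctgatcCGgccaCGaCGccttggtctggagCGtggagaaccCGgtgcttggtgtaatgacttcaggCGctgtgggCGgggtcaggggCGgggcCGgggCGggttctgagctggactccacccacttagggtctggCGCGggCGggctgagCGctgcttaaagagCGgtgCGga
Kcnk13: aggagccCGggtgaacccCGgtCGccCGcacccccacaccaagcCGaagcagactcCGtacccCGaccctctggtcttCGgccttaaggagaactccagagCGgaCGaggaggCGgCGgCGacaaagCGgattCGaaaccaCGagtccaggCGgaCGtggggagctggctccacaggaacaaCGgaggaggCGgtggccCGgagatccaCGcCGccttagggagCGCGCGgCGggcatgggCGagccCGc
Kcnk4: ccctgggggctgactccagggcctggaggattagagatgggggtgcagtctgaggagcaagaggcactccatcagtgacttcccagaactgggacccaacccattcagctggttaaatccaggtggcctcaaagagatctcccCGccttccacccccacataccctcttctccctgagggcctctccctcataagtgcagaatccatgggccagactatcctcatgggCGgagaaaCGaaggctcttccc
The motif searched was CG, which reads the same on both strands. There were 22 in the Kcnk5 window, 29 in the Kcnk13 window and 3 in the Kcnk4 window, and the median over 33469 such windows was 5. At least as many were found in 13.7% of windows for Kcnk5, in 6.04% for Kcnk13 and in 71.4% for Kcnk4, and 92.2% of windows held at least 1. Since 29 of the 49 channel genes had a window in that table, no comparison of detected with undetected genes was made on it.

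Genes that make, move, clear or sense the transmitters of these receptors were described from lists. Of 11 GABA-related genes on the array 7 were detected (63.6%, against 69.4% of all named genes), 5 higher and 2 lower after isoflurane, with 0 past the threshold and a median difference of 0.11. They included the liver GABA and betaine transporters Slc6a13 (0.17 ± 0.12) and Slc6a12 (0.16 ± 0.14), the GABA-B receptor subunit Gabbr1 (0.11 ± 0.09) and the synthetic enzyme Gad1 (0.20 ± 0.21), the last above background on 2 of 3 isoflurane and 3 of 3 CO2/O2 arrays. Of 10 glycine-related genes 8 were detected (80.0%), 6 higher and 2 lower, with 0 past the threshold and a median of 0.12. Agxt, the peroxisomal enzyme that makes glycine from glyoxylate, had -0.32 ± 0.09, and Gnmt, the glycine methyltransferase, had 0.39 ± 0.17.

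Partners that cluster or traffic these receptors and channels were detected for 15 of 17 genes, 11 higher and 4 lower, with 0 past the threshold and a median of 0.03. S100a10, an annexin partner that carries TASK-1 to the membrane, had -0.32 ± 0.12 with groups that did not overlap (limma adjusted p = 0.648), and Gabarap, the GABA-A receptor-associated protein of the autophagy family, had 0.10 ± 0.08. Of 30 other channels reported as anaesthetic targets 12 were detected, 6 higher and 6 lower, with 0 past the threshold. The inositol trisphosphate receptor Itpr3 had -0.39 ± 0.16, and Abcc8, the sulfonylurea receptor, had 0.55 ± 0.27. Itpr3 was above background on 2 of 3 isoflurane and 3 of 3 CO2/O2 arrays. It entered the test only through the CO2/O2 group, which favours a negative difference. Other potassium channels were detected for 6 of 16 genes, with 0 past the threshold. Kcnn4, the calcium-activated channel of red cells, macrophages and epithelia, had -0.31 ± 0.10 without overlap (limma adjusted p = 0.601), and Kcnq1, an epithelial potassium channel, had -0.07 ± 0.14. All 6 genes of isoflurane metabolism were detected, 3 higher and 3 lower, with Cyp2e1 at -0.28 ± 0.16 (limma adjusted p = 0.731).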

How the data were processed

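RNA from the liver of 1 rat was hybridised to each of 6 arrays. Agilent Feature Extraction 10.7 is the software that the submitters' processing notes name. The deposited spot values are intensity values, which per the file headers were background-subtracted and detrended within each array and not scaled across arrays. The deposited value table holds a ratio on a linear scale, found to be the processed intensity over 1 number per array, with no centring, and the sources used here do not say how the authors chose it. Its column medians were 0.0917, 0.0901 and 0.0905 for isoflurane replicates 1 to 3 and 0.0864, 0.0882 and 0.0868 for CO2/O2 replicates 1 to 3. The number lay close to the array's 75th percentile. It was 923, 913 and 953 against 921, 912 and 952 for isoflurane replicates 1 to 3. For CO2/O2 replicates 1 to 3 it was 998, 942 and 999 against 997, 941 and 998. The authors' values are thus scaled nearly as in the main fit.

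Intensities were put on the log2 scale and reduced by the 75th percentile over 61657 non-control probes. Spots marked as outliers were left out (0 on the channel probes), and 0 spots were saturated. Accessions without versions were matched to RefSeq genes of GRCr8, which named 27460 probes; the arrays' headers name another build. Probes that stood well above background on every array of at least 1 group were fitted with limma 3.58.1 (lmFit, eBayes) in R 4.3.3, with a threshold of adjusted p 0.05 and no covariate. Files were read with Python 3.11.15 and pandas 2.3.3. The test was checked on simulated data. The number of arrays limits the precision. The p-values rest on the spread between arrays of 1 rat each, moderated by eBayes over all probes fitted. Rat and array variation cannot be told apart in that spread.

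Channel genes tested are named with values on every array, and some of the undetected ones are not reported here. The gene families, pathway and marker lists were chosen with earlier results of these data known. The samples share replicate numbers across groups, but deviations of samples with the same number had correlations of 0.11, 0.02 and 0.06, so no pairing was used. Alternatives were normexp background correction (offset 50), quantile normalization, median centring, the authors' table, no filter or a filter on all 6 arrays, outliers kept, eBayes with trend and robust, blocks for replicate and slide row, probe averaging, other detection flags and leaving out each array. Names from the array design were not used here. All 6 arrays lay on 1 slide.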

Additional observations from a re-analysis of the deposited data

How the results depend on the processing

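The count of channel genes past the threshold, 0, stayed 0 in all alternatives run except without isoflurane replicate 1, where it was 1 (Kcnk4, which then entered through the isoflurane group alone, against CO2/O2 values all at background), so leaving out an array gave 0 to 1. With the replicate block it was 0 and the median difference 0.07, and the block changed no call. The number detected, 18, was 15 on all 6 arrays, 23 on at least 1 array, 24 by the software's weaker flag for positive and significant signal, 18 to 19 with an array left out, and 8 where all probes of a gene had to be detected, an alternative added after the data were seen. The median difference, 0.07, lay between 0.01 and 0.19 under the other scalings, filters and blocks, and from -0.0616 (without CO2/O2 replicate 3) to 0.12 with an array left out. Without genes that had an undetected probe, also added later, it was -0.03. With no filter it was 0.49 over 49 genes. On the 50 channel probes that were never above background, median intensity was 7.32, 12.5 and 10.6 on isoflurane arrays and 9.48, 6.86 and 6.04 on CO2/O2 arrays.

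Of 303 gene differences under alternatives, 282 kept their sign and 0 passed the threshold, and 8 of 18 genes kept it in all alternatives that gave a value. Many of the 303 could not turn. Both filter settings, outliers kept, eBayes with trend and robust, and the replicate block leave a gene's difference unchanged. The authors' table hardly moves it, and probe averaging leaves it unchanged where only 1 probe was tested. The count of 282 therefore overstates how far the signs were tested. Signs turned with normexp for Glra1 (0.0162) and Grina (-0.0039), with median centring for Grina (-0.0148), and in the slide row fit for Glra1 (0.30), Grin2d (0.0466), Grina (-0.15), Kcnk1 (0.0193), Kcnk2 (0.80) and Kcnk5 (0.0418), a fit in which the isoflurane side of the shared row is 1 rat. The cause of these turns was not tested. Leaving out an array gave values of -0.15 to 0.32 for Grin1, -0.34 to 0.42 for Grin2c, -0.0902 to 0.0126 for Grin2d, -0.0310 to 0.14 for Grina, -0.0559 to 0.24 for Hcn4, -0.12 to 0.67 for Kcnk12, -0.84 to 0.32 for Kcnk2 and -0.17 to 0.0336 for Kcnk5. Those of Gabrq (0.13 to 0.26), Kcnk10 (0.30 to 0.63), Hcn3 (0.27 to 0.78), Glra2 (0.16 to 0.65), Glra1 (-0.45 to -0.0110), Gabrd (0.0391 to 0.36), Kcnk1 (-0.87 to -0.29), Kcnk3 (0.0798 to 0.23), Kcnk13 (-0.58 to -0.39) and Kcnk6 (-0.44 to -0.30) kept their sign. Dim probes limit what can be said of the genes near background.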
